A study of Saccharomyces cerevisiae with 9 samples.

Results

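The Hsp31 family of budding yeast comprises HSP31 (YDR533C), HSP32 (YPL280W), HSP33 (YOR391C) and SNO4 (YMR322C, also called HSP34). Its 4 genes were taken by their systematic names from 7126 annotated features, and all 4 passed the filter on low counts that left 6847 features for testing. Their mRNA was measured by RNAseq in the haploid strain BY4742 (MATα; his3Δ1; leu2Δ0; lys2Δ0; ura3Δ0), labelled wild type, in 9 libraries from 3 independent cultures grown for 48 h at 25 °C in YPD to the stationary phase. The heat ramp group (n = 3) was warmed between 25 °C and 50 °C at 0.5 °C per min, the heat shock group (n = 3) at 50 °C per min, and both were kept at 50 °C for 30 min and quickly returned to 25 °C. The control group (n = 3) was collected without heating. Which of these treatments changed the mRNA of the family, and by how much, was the question asked of the data. At the lower rate the cells also spent longer in the heat before the hold at 50 °C. Heating rate and time in heat therefore cannot be told apart here.

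Hsp31 proteins belong to the DJ-1/ThiJ/PfpI superfamily, which includes human DJ-1, whose loss causes a form of Parkinson's disease. Hsp31 is a glyoxalase that converts methylglyoxal, a toxic by-product of glycolysis, to D-lactate without glutathione, and it also has chaperone activity. The other members of the family were described in yeast as possible chaperones needed for survival in stationary phase, and they lie close to the ends of their chromosomes among repeated gene blocks.

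The sequences of the genes determine which reads can be told apart, and are therefore shown before the counts. In the R64 reference (the sequence of the SacCer3 assembly used by the authors), each member is a single exon of 714 coding bases for 237 amino acids. HSP31 lies on chromosome IV (1501447 to 1502160, minus strand), 29.77 kb from the nearer end. HSP32 lies on chromosome XVI (11887 to 12600, plus strand), HSP33 on chromosome XV (1078545 to 1079258, minus strand) and SNO4 on chromosome XIII (918366 to 919079, minus strand). These last members lie 11.89, 12.03 and 5.35 kb from the nearer end of their chromosomes. HSP31 had 69.2% of its amino acids and 68.49% of its coding bases in common with HSP32. The first 90 coding bases of both show this distance, and the capitals mark the 28 positions at which they differ (RefSeq R64; HSP31 at chrIV:1502071-1502160, minus strand; HSP32 at chrXVI:11887-11976, plus strand).
HSP31: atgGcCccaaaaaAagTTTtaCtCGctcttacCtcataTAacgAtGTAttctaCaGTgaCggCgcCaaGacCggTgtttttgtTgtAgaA
HSP32: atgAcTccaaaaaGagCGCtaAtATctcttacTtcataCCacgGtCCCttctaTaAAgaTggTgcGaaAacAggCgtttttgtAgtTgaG

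HSP32, HSP33 and SNO4 are near-identical copies. HSP33 differed from HSP32 at 4 of 714 coding bases, and SNO4 differed from HSP32 at 4 others. Counted from the first base of the start codon, and with the base of HSP32 given first, the differences of HSP33 were T54C, G99A, T111A and A301G, and those of SNO4 were T405C, G583A, C606T and A633C. One of each set changed an amino acid, I101V in HSP33 and G195R in SNO4. These stretches hold the differences that lie closest together, with the differing bases in capitals. In coding bases 89 to 121, HSP33 stands apart (HSP32 at chrXVI:11975-12007, plus strand; HSP33 at chrXV:1079138-1079170, minus strand; SNO4 at chrXIII:918959-918991, minus strand).
HSP32: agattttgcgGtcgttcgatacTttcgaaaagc
HSP33: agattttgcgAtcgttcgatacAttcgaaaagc
SNO4: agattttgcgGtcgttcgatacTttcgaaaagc

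In coding bases 573 to 643, SNO4 stands apart (HSP32 at chrXVI:12459-12529, plus strand; HSP33 at chrXV:1078616-1078686, minus strand; SNO4 at chrXIII:918437-918507, minus strand).
HSP32: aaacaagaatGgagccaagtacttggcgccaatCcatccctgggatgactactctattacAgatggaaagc
HSP33: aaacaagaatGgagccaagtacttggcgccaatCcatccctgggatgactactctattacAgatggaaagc
SNO4: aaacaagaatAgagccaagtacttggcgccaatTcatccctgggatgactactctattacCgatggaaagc

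Reads were up to 50 bases long. Of the 665 windows of 50 bases in the HSP31 coding sequence, all 665 occur once in the genome. For HSP33 157 windows (23.61%) occur once, for SNO4 150 (22.56%), and for HSP32 none of 665 does. HSP32 nevertheless had between 200 and 471 reads in every library. Over 5994 protein-coding genes, 94 had no window that occurs once, and 91 of these had reads in every library. Reads with several places of origin were thus probably counted, but reads that cross the ends of a coding sequence were not examined. Whether a read with several places was counted at 1 place or at each of them is not given in the sources used here. The counts of HSP32, HSP33 and SNO4 are therefore uncertain one by one, and their sum is given beside them. The sum does not depend on the place chosen if each read was counted once, but would hold reads several times if they were counted at each place.

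**Figure D1:**
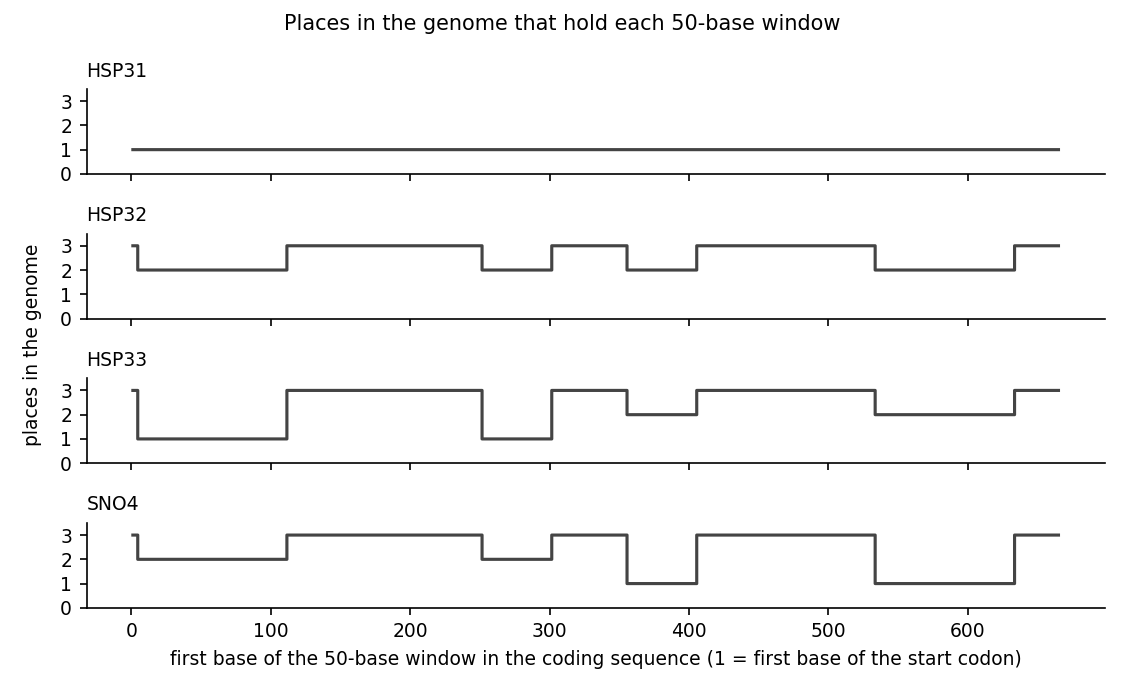
Number of places in the genome (vertical axis) that hold the 50-base window starting at each base of the coding sequence (horizontal axis, 1 is the first base of the start codon) for the 4 genes. The line stays at 1 for HSP31 and never reaches 1 for HSP32, while 157 windows of HSP33 and 150 of SNO4 are at 1.

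All values are given as normalized counts, that is, reads per gene after division by a DESeq2 size factor. Between 22579312 and 27233289 reads were counted per library. The size factors were 0.610 to 0.714 after the heat ramp, 1.11 to 1.13 after the heat shock and 1.40 to 1.46 in the control, so that normalized counts of a library summed to 35755260 ± 1413300 after the heat ramp, 21336085 ± 514422 after the heat shock and 18934668 ± 311263 in the control (SD, n = 3 each). Total count scaling, the alternative, shifted the median of all log2 fold changes by −0.91 in heat ramp against control, −0.17 in heat shock against control and −0.74 in heat ramp against heat shock. Both scalings are therefore given for the family. As checks of the strain, LYS2, LEU2 and URA3 had 0 reads in all 9 libraries, which allows up to 3 reads in a library. The α-specific gene STE3 had 1419 to 6578 reads in a library, but the a-specific genes STE2 (353 to 2703 reads) and BAR1 (75 to 1192 reads) were also read in every library.

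HSP31 had the largest log2 fold change of the family after the heat ramp. After the heat ramp it had 42000.02, 35481 and 40369.8 normalized counts, after the heat shock 5973, 6130 and 5792, and in the control 4149, 4646 and 4132. The libraries of the 3 groups did not overlap, with the heat ramp highest and the control lowest. For how many of all features this holds was not counted. The mean was 39284 ± 3392 after the heat ramp, 5965 ± 169 after the heat shock and 4309 ± 292 in the control (SD, n = 3 each). HSP31 rose 9.11-fold after the heat ramp (log2 fold change 3.19, standard error 0.123, limma adjusted p = 8.75e-11). It rose 1.39-fold after the heat shock (log2 fold change 0.47, standard error 0.123, limma adjusted p = 0.00510). Scaled to the total count, the first difference was 2.27 (adjusted p = 2.72e-10) and the second was 0.30 and no longer passed the threshold (adjusted p = 0.0558). In RNA from whole cultures, a change in the share of cells that express a gene and a change in RNA per cell cannot be told apart.

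**Figure D2:**
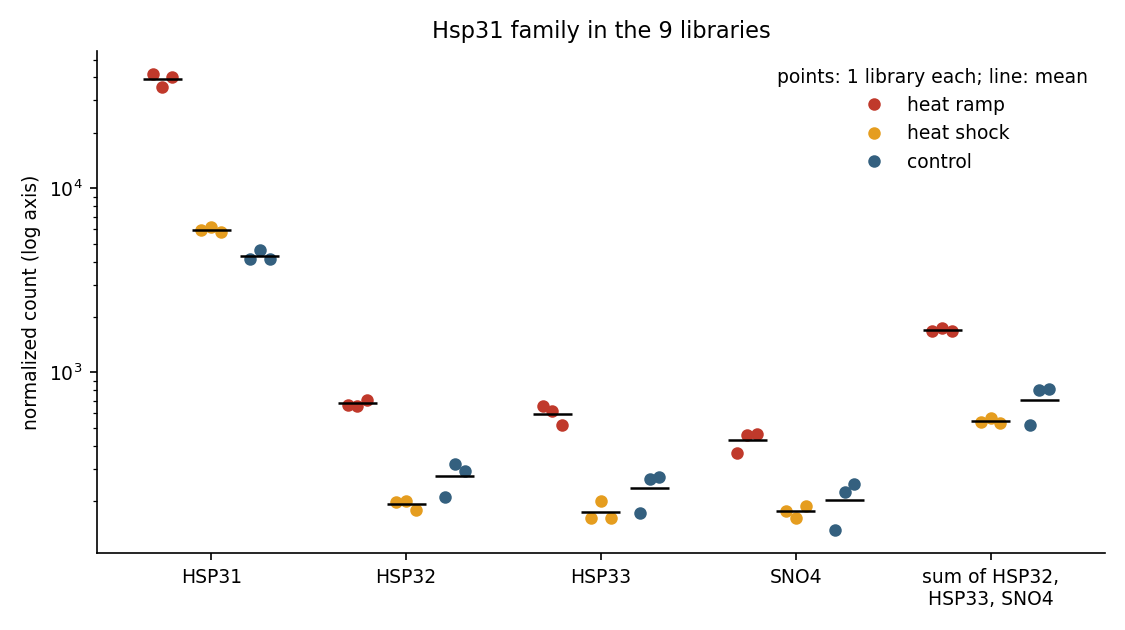
Normalized counts (vertical log axis) of HSP31, HSP32, HSP33, SNO4 and the sum of the last 3 in each library after the heat ramp, after the heat shock and in the control, with a line at the mean. The heat ramp libraries of HSP31 sit between 35481 and 42000, and those of the sum between 1682 and 1735, above all libraries of the other groups.

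Against all tested features, the log2 fold change of HSP31 was the 378th highest of 6847 in heat ramp against control, the 1950th in heat shock against control and the 215th in heat ramp against heat shock. Because levels between genes need to be set per length, normalized counts were divided by the coding length. HSP31 had 55019 normalized counts per kb after the heat ramp, 8354 after the heat shock and 6035 in the control, against medians over 5988 protein-coding genes of 867, 971 and 1089 in the same samples. It was thereby the 90th most abundant of these genes after the heat ramp, the 512th after the heat shock and the 621st in the control. HSP32, HSP33 and SNO4 were less abundant. They ranked between 2845 and 3702 after the heat ramp, between 4993 and 5088 after the heat shock and between 4798 and 5085 in the control.

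The copies HSP32, HSP33 and SNO4 rose after the heat ramp, with smaller log2 fold changes than HSP31. Summed, they had 1682, 1735 and 1688 normalized counts in the heat ramp libraries, 538, 562 and 529.98 in the heat shock libraries and 521, 803 and 809.7 in the control libraries. The heat ramp libraries lay above all others, while control replicate 1 was lower than the other control libraries and below all heat shock libraries. The sum rose 2.44-fold after the heat ramp (log2 fold change 1.29, standard error 0.157, limma adjusted p = 3.98e-06). After the heat shock its log2 fold change was −0.36 (standard error 0.157), which did not pass the threshold in limma (adjusted p = 0.0647, 95% interval −0.70 to −0.02). It did pass without control replicate 1 (−0.57, adjusted p = 0.00327), in limma with TMM scaling (−0.38, adjusted p = 0.0488) or total count scaling (−0.53, adjusted p = 0.0128), in edgeR with TMM scaling (−0.41, adjusted p = 0.0304) and in DESeq2 (−0.38, adjusted p = 0.0450).

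Taken one by one, HSP32 had 663, 660.1 and 709 normalized counts in the heat ramp libraries, 198, 200.02 and 179.7 in the heat shock libraries and 210.05, 318 and 292 in the control libraries. Its heat shock libraries were lowest, but the gap to the control was narrow (200.02 against 210.05). How many of all features separate in this way was not counted. It rose 2.51-fold after the heat ramp (log2 fold change 1.33, limma adjusted p = 4.38e-06) and fell by 0.48 on the log2 scale after the heat shock (limma adjusted p = 0.0216). The fall lost significance without control replicate 2 (−0.36, adjusted p = 0.114), without control replicate 3 (−0.42, adjusted p = 0.0881) and without heat shock replicate 3 (−0.43, adjusted p = 0.0674).

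HSP33 had 654, 618 and 516 normalized counts in the heat ramp libraries, 162, 201 and 162 in the heat shock libraries and 172, 262 and 272 in the control libraries. Heat shock and control libraries overlapped. It rose 2.57-fold after the heat ramp (log2 fold change 1.36, limma adjusted p = 1.52e-05), and its log2 fold change after the heat shock was −0.40 (adjusted p = 0.0843). Without control replicate 1 this was −0.61 and passed the threshold (adjusted p = 0.0129).

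SNO4 had 365, 457 and 462 normalized counts in the heat ramp libraries, 178, 161 and 189 in the heat shock libraries and 139, 223 and 246 in the control libraries. Again the heat ramp libraries were highest and the others overlapped. It rose 2.16-fold after the heat ramp (log2 fold change 1.11, limma adjusted p = 0.000192). After the heat shock, its log2 fold change was −0.16 (adjusted p = 0.513, 95% interval −0.60 to 0.28). Thus 4 of 4 members were called higher after the heat ramp, where 39% of all features tested were (78.5% were called in either direction). HSP32, HSP33 and SNO4 can share reads, so these calls are not separate findings. With total count scaling HSP31 and HSP32 kept this call and HSP33 and SNO4 lost it, where 19.2% of all features were called higher. After the heat shock HSP31 was called higher, as 29.9% of all features were, and HSP32 lower, as 27.7% were (57.6% in either direction). Both comparisons use the same 3 control libraries.

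Compared directly, heat ramp and heat shock differed for every member, each higher after the heat ramp (35.9% of all features tested were, 36.1% were lower and 72% were called in either direction). In limma this log2 fold change was 2.72 for HSP31 (standard error 0.123, adjusted p = 2.96e-10). It was 1.65 for the sum of the copies (standard error 0.157, adjusted p = 3.47e-07), namely 1.81 for HSP32, 1.76 for HSP33 and 1.27 for SNO4. These 5 differences kept their direction and passed the threshold under total count scaling too, at 1.97, 0.90, 1.07, 1.02 and 0.53 in the same order.

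How much of the response to the heat ramp was seen in the copies depended on the scaling. Scaled to 1000000 counted reads, the sum was 46.7, 50.7 and 45.6 in the heat ramp libraries, 25.3, 26.97 and 24.2 in the heat shock libraries and 27.4, 43.2 and 42.1 in the control libraries. HSP31 had 1165, 1037 and 1091 reads on this scale in the heat ramp libraries, 280.3, 294 and 265 in the heat shock libraries and 218, 249.8 and 215 in the control libraries. The heat ramp libraries were still the highest for both. Heat ramp against control then gave a log2 fold change of 0.37 for the sum (limma adjusted p = 0.0485), 0.41 for HSP32 (adjusted p = 0.0371), 0.45 for HSP33 (adjusted p = 0.0512) and 0.20 for SNO4 (adjusted p = 0.387). Heat shock against control gave −0.53 for the sum (adjusted p = 0.0128), −0.65 for HSP32 (adjusted p = 0.00474) and −0.57 for HSP33 (adjusted p = 0.0237), all past the threshold, and −0.34 for SNO4 (adjusted p = 0.181).

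**Figure D3:**
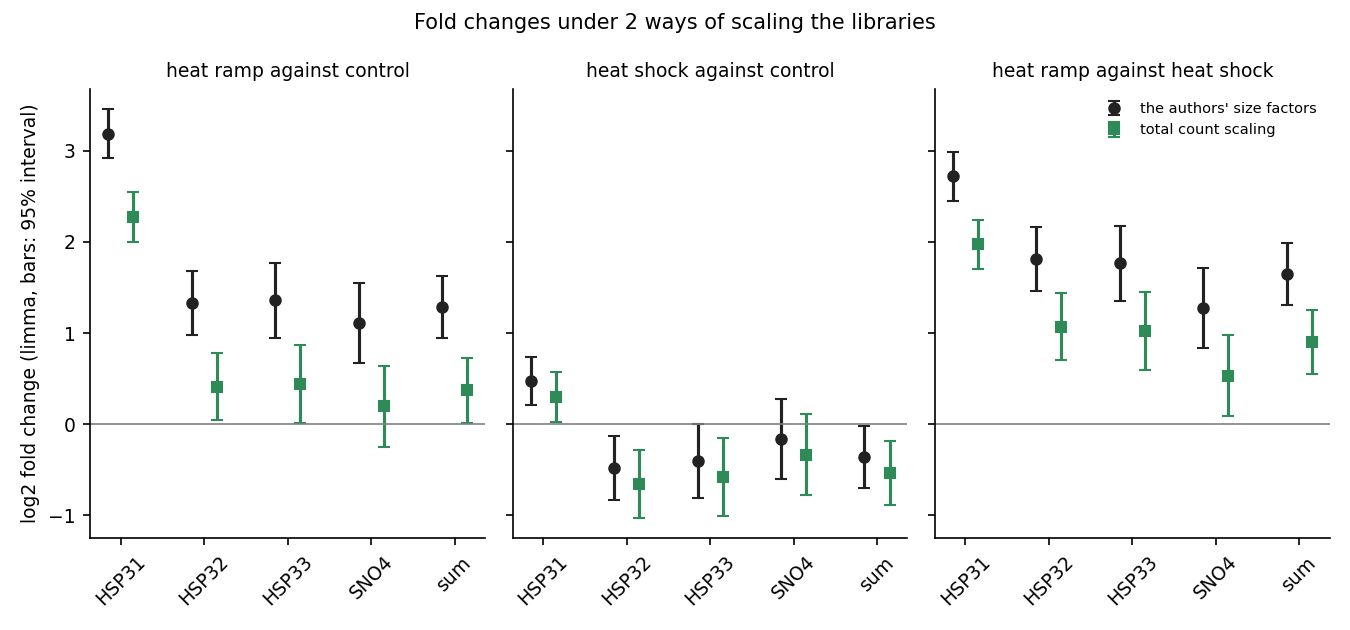
Log2 fold changes (vertical axis) of the 4 genes and of the sum of HSP32, HSP33 and SNO4 in the 3 comparisons, with the authors' size factors and with total count scaling; bars are 95% intervals from limma. HSP31 stays near 2 or above in both comparisons of the heat ramp, while in heat ramp against control the sum of the copies moves to 0.37 with total count scaling, against 1.29 with size factors.

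A ratio of 2 genes within a library does not depend on any scaling, although its level here depends on how reads with several places were counted. HSP31 had 25.0, 20.5 and 23.9 times the summed count of its copies after the heat ramp, 11.1, 10.9 and 10.9 times after the heat shock and 7.97, 5.79 and 5.10 times in the control. The groups did not overlap, so the order of heat ramp, heat shock and control was necessarily the same in all 3 cultures. On the log2 scale the ratio was 4.53 ± 0.15 after the heat ramp, 3.46 ± 0.014 after the heat shock and 2.63 ± 0.33 in the control (SD, n = 3 each). It was 3.73-fold higher after the heat ramp than in the control, 1.78-fold higher after the heat shock than in the control and 2.10-fold higher after the heat ramp than after the heat shock. Each of these 3 comparisons gave p = 0.1 in a two-sided exact permutation test, also after Benjamini-Hochberg adjustment, the smallest value that 3 against 3 libraries allow. HSP31 made up 95.8% ± 0.430 of the counts of the family after the heat ramp, 91.7% ± 0.072 after the heat shock and 85.9% ± 2.68 in the control.

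**Figure D4:**
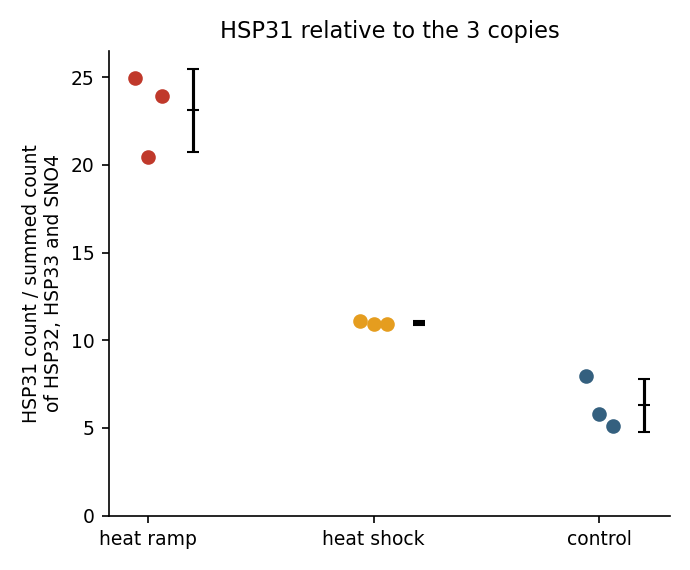
Count of HSP31 divided by the summed count of HSP32, HSP33 and SNO4 (vertical axis) in each library after the heat ramp, after the heat shock and in the control; points are libraries and bars the mean ± SD of 3. The heat ramp libraries sit between 20.5 and 25.0, the heat shock libraries between 10.9 and 11.1 and the control libraries between 5.10 and 7.97.

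Within the sum, HSP32 took on average the largest share in all groups. It took 39.8% ± 2.03 after the heat ramp, 35.4% ± 1.47 after the heat shock and 38.7% ± 2.31 in the control. SNO4 took 25.1% ± 3.02 after the heat ramp, 32.4% ± 3.503 after the heat shock and 28.2% ± 1.94 in the control, and HSP33 took 35.0% ± 4.18, 32.1% ± 3.12 and 33.1% ± 0.461 in the same samples (SD, n = 3 each). These shares depend on how reads with several places of origin were counted, so no difference in the expression of single copies was read from it.

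The 300 bases before the start codons were set beside these values. Upstream, HSP32 had 97% of these bases in common with HSP33, 98.67% with SNO4 and 45.33% with HSP31. Motifs were searched on both strands: the stress response element AGGGG, which Msn2 and Msn4 bind, the Yap1 site TTACTAA, the heat shock element, which Hsf1 binds (the units TTC, GAA and TTC in this order with any 2 bases between neighbours), and the post-diauxic shift elements TAAGGGAT and TTAGGGAT. AGGGG occurred at 1 place before HSP31 (bases 222 to 218 before the start codon) and at 2 places before each of HSP32, HSP33 and SNO4 (bases 191 to 187 and 150 to 146). It occurs in 22.18% of such windows of 6001 protein-coding genes. The letters of the Yap1 site (7.82% of windows), the heat shock element (0.87%) and the post-diauxic shift elements (1.63%) were not found in these windows of the 4 genes. The windows of HSP31 (chrIV:1502161-1502460, minus strand) and HSP32 (chrXVI:11587-11886, plus strand) are shown because their matches differ in number and place, with AGGGG in capitals.
HSP31: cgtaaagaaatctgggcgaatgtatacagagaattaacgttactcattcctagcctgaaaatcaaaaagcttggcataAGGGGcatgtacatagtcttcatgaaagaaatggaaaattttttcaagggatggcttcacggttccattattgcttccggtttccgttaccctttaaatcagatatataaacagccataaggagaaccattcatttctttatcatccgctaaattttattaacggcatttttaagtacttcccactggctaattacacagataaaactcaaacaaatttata
HSP32: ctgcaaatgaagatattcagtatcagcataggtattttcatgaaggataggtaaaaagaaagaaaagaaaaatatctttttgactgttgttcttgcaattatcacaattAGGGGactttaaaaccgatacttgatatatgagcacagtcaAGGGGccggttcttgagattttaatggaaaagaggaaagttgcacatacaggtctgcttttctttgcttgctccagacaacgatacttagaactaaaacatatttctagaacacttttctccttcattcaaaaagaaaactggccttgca

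Methylglyoxal is also removed by other enzymes. Beside HSP31, 6 genes of its removal or of the use of the product D-lactate (DLD1) were followed. After the heat ramp 3 of them were higher and 1 lower (median log2 fold change 0.47, against −0.01 over all features tested), and 2 did not pass the threshold. Of all features tested, 39% were called higher and 39.5% lower in this comparison. GRE3, an aldose reductase that accepts methylglyoxal, had 65298 ± 13643 normalized counts after the heat ramp, 1752 ± 363 after the heat shock and 1351 ± 306 in the control (SD, n = 3 each). It rose by 5.59 on the log2 scale after the heat ramp (limma adjusted p = 3.71e-11), against 3.19 for HSP31. GLO1, glyoxalase I of the glutathione-dependent route, had 16151 ± 2400 after the heat ramp, 2976 ± 373 after the heat shock and 3290 ± 178 in the control, a log2 fold change of 2.29 after the heat ramp (adjusted p = 3.67e-09). The next enzyme, glyoxalase II, is encoded by GLO2 in the cytosol and GLO4 in mitochondria, which after the heat ramp had log2 fold changes of 0.11 (adjusted p = 0.393) and 0.18 (adjusted p = 0.227, or 0.0136 without heat ramp replicate 2). GRE2, a methylglyoxal reductase, rose by 0.77 (adjusted p = 0.00191), and DLD1, the D-lactate dehydrogenase that uses the product of both routes, fell by 0.88 (adjusted p = 6.55e-06). With total count scaling GRE3 (4.68), GLO1 (1.37) and DLD1 (−1.80) kept their calls, GRE2 turned to −0.14 (adjusted p = 0.476), and GLO2 (−0.81) and GLO4 (−0.74) were lower, as 64.2% of all features were.

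After the heat shock 1 of the 6 genes was higher and 3 were lower (median −0.29, against 0.04 over all features tested). Of all features tested, 29.9% were called higher and 27.7% lower. GRE2 rose by 0.57 (limma adjusted p = 0.0199), a call lost with total count scaling (0.39, adjusted p = 0.0815) and without control replicate 2 or 3 or heat shock replicate 1 or 2. GLO2 fell by 0.95 (adjusted p = 1.71e-05), GLO4 by 0.43 (adjusted p = 0.0112) and DLD1 by 0.77 (adjusted p = 8.48e-05), also with total count scaling. GLO1 (−0.15, adjusted p = 0.364) and GRE3 (0.38, adjusted p = 0.112) did not pass the threshold, which GRE3 did without control replicate 1 (0.56, adjusted p = 0.0357). In heat ramp against heat shock, GRE3 (5.22), GLO1 (2.44), GLO2 (1.05) and GLO4 (0.61) were higher, and none was lower. Of all features tested, 35.9% were called higher and 36.1% lower there. With total count scaling GRE3, GLO1 and GLO2 kept their calls, while DLD1 (−0.86, adjusted p = 1.26e-05) and GRE2 (−0.54, adjusted p = 0.0154) were lower, as 59.9% of all features were.

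**Figure D5:**
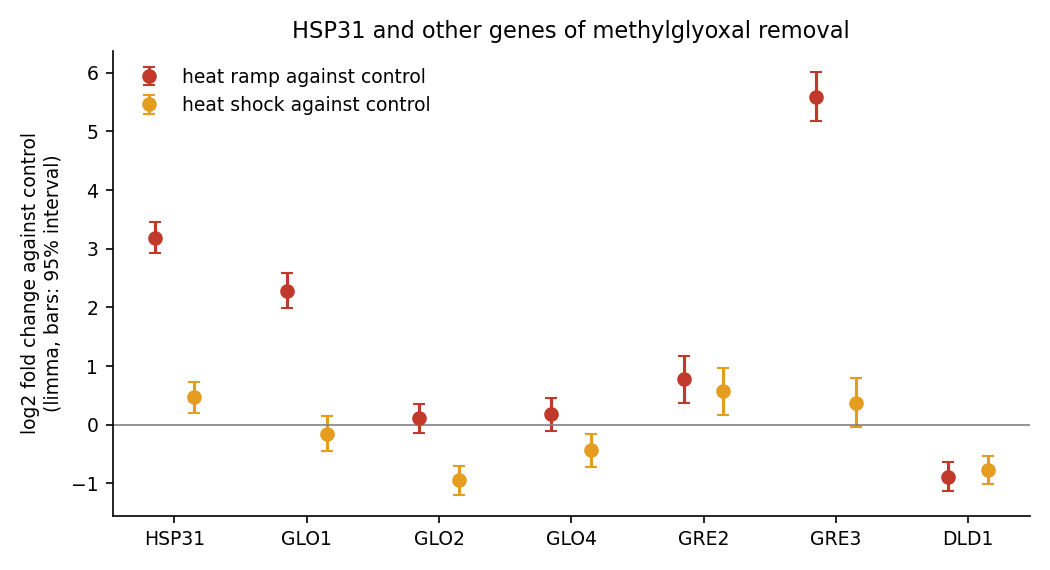
Log2 fold changes against the control (vertical axis) of HSP31 and 6 other genes of methylglyoxal removal or of the use of its product (DLD1). The heat ramp is on the left and the heat shock on the right of each pair, and bars are 95% intervals from limma. HSP31 (3.19), GLO1 (2.29) and GRE3 (5.59) lie far above 0 after the heat ramp, while after the heat shock all 7 genes lie between −0.95 and 0.57.

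Of 6 genes for transcription factors known to act on stress genes of yeast (YAP1, CAD1, SKN7, MSN2, MSN4 and HSF1), none was called higher after the heat ramp and 4 were lower (median −0.53), where 39.5% of all features tested were lower. All 6 were lower with TMM scaling (41.4% of all features) and with total count scaling (64.2% of all features). MSN4 had 3487 ± 360 normalized counts after the heat ramp, 3166 ± 175 after the heat shock and 9106 ± 926 in the control, and it fell by 1.39 after the heat ramp (limma adjusted p = 1.83e-07) and by 1.52 after the heat shock (adjusted p = 7.46e-07). HSF1 fell by 0.41 after the heat ramp (adjusted p = 0.00629) and by 1.04 after the heat shock (adjusted p = 1.09e-05). YAP1 fell by 0.89 after the heat ramp (adjusted p = 0.000196) and by 0.52 after the heat shock (adjusted p = 0.0156, or 0.0657 without heat shock replicate 3). CAD1, its paralogue, fell by 0.65 (adjusted p = 0.000819) and by 1.19 (adjusted p = 1.68e-05). MSN2 had log2 fold changes of −0.24 (adjusted p = 0.104) in heat ramp and 0.30 (adjusted p = 0.0599) in heat shock against control. The first was called without heat ramp replicate 1. The second was called in a limma fit of only the 2 groups compared (adjusted p = 0.018), in DESeq2 and without heat ramp replicate 1 or 2. SKN7 was at −0.18 (adjusted p = 0.141) after the heat ramp and rose by 0.29 after the heat shock (adjusted p = 0.0304), a call that total count scaling ended (0.12, adjusted p = 0.397), as did leaving out any of the control libraries or heat shock replicate 1 or 3.

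HSP32, HSP33 and SNO4 have like neighbours, which are repeated as well. Each copy lies beside an ERR gene (enolase-related) and a PAU gene (seripauperin), and HSP32 and HSP33 also lie beside a FEX gene (fluoride exporter). No window of 50 bases in ERR1, ERR2, PAU21 or PAU22 occurs once in the genome. In FEX1 and in FEX2 20.57% of windows do, in PAU19 27.91% and in ERR3 35.89%. The counts of all these neighbours are therefore uncertain in the same way. Of 8 neighbours, 7 passed the filter on low counts, and all 7 were higher after the heat ramp (median 1.48), as 39% of all features tested were. With total count scaling 3 of the 6 then tested were higher (ERR1, ERR2 and PAU22), as 19.2% of all features were. ERR1 beside HSP33 had 390 ± 45.1 normalized counts after the heat ramp, 108 ± 6.88 after the heat shock and 135 ± 16.3 in the control (SD, n = 3 each), with a log2 fold change of 1.53 in heat ramp against control and −0.31 in heat shock against control (limma adjusted p = 1.35e-06 and 0.126, the second −0.48 and called with total count scaling). ERR2 beside HSP32 (1.48 and −0.14) and ERR3 beside SNO4 (1.35 and −0.15) gave similar values. The FEX genes were called higher after both treatments. FEX2 was higher by 1.14 in heat ramp and 0.95 in heat shock against control (adjusted p = 1.36e-05 and 0.000216), and FEX1 by 1.08 and 0.94 (adjusted p = 5.36e-06 and 7.33e-05), whereas total count scaling left only the rise after the heat shock past the threshold (0.78 and 0.77). PAU22 rose by 2.08 after the heat ramp (adjusted p = 0.000582) and by 1.28 after the heat shock (adjusted p = 0.0220, above 0.05 without control replicate 1 or 3 or heat shock replicate 1 or 2), and PAU21 had log2 fold changes of 1.65 (adjusted p = 0.00396) and 1.05 (adjusted p = 0.0593, below 0.05 without heat shock replicate 2 or heat ramp replicate 2). PAU22 had 20.3 ± 6.78 normalized counts after the heat ramp, 11.0 ± 2.69 after the heat shock and 3.95 ± 1.36 in the control, and PAU19, at 11.9 ± 4.08, 6.83 ± 2.72 and 5.37 ± 1.00, did not reach the filter.

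Beside HSP31 lie KRE28, a kinetochore gene, and FIT1, a cell wall mannoprotein of iron uptake. KRE28 fell by 0.60 after the heat ramp (limma adjusted p = 0.00435) and by 1.55 after the heat shock (adjusted p = 6.59e-06). FIT1 rose by 0.59 after the heat ramp (adjusted p = 0.0369), a call lost with TMM or total count scaling, at −0.32 with total count scaling, and without control replicate 2 or 3 or heat ramp replicate 1 or 3. It was at 0.04 after the heat shock (adjusted p = 0.909).

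SNO4 has its name in common with SNO1, SNO2 and SNO3, which together with SNZ1, SNZ2 and SNZ3 serve in the synthesis of pyridoxine (vitamin B6). After the heat ramp their log2 fold changes lay between −0.88 and 0.43, against 1.11 for SNO4. Of the 6 genes, 2 were higher (SNO1 by 0.43, limma adjusted p = 0.0478, and SNZ1 by 0.30, adjusted p = 0.0335), 2 were lower (SNZ2 by 0.87 and SNZ3 by 0.88, adjusted p = 0.00187 and 0.00252), and SNO2 (0.05) and SNO3 (0.04) did not pass the threshold. Over all features tested, 39% were higher and 39.5% lower. The rises ended with TMM scaling, that of SNO1 also without control replicate 1 or 2, heat shock replicate 2 or heat ramp replicate 1 or 3, and that of SNZ1 without any control library or heat ramp replicate 3, and with total count scaling all 6 genes were lower, as 64.2% of all features were. After the heat shock SNO1 rose by 0.90 (adjusted p = 0.00103), also with total count scaling, and SNO2 fell by 0.37 (adjusted p = 0.0382), a call lost without control replicate 2 or 3 or heat shock replicate 1 or 3.

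The pattern of HSP31 over the 9 libraries was most like that of ECM22, RRT8, OSW1, BMH1 and HSP10, by the Pearson correlation of log2(normalized count + 1), which was between 0.997 and 0.998. These values describe 9 libraries in 3 groups with common controls. HSP10, the mitochondrial co-chaperonin, had 24667 ± 3075 normalized counts after the heat ramp, 2443 ± 452 after the heat shock and 1649 ± 191 in the control, and BMH1, a 14-3-3 protein, had 106640 ± 11650, 27728 ± 861 and 23117 ± 639 in the same samples. The differences were of unequal size, as heat ramp against control gave a log2 fold change of 1.21 for ECM22, a regulator of sterol synthesis, and 5.84 for OSW1, a spore wall gene. For the sum of the copies, the most alike were DPC7, YCR006C, ERR1, YBR012C and YKL097C, with correlations between 0.980 and 0.983. Among these ERR1 is the neighbour of HSP33. The log2 fold changes of these 5 features in heat ramp against control, whose sign follows from how they were chosen, were 1.14 to 1.96, or 0.23 to 1.05 with total count scaling.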

How the data were processed

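RNAseq was measured in 9 libraries of poly(A)+ RNA, 3 per group. The authors trimmed reads with Trimmomatic 0.32, aligned them to SacCer3 with Bowtie2 and used DESeq2. The counting tool, its annotation, strand setting and treatment of reads with several places are not given in the sources used here. The deposited values are a signal, reads per feature over a DESeq2 size factor for each library. Of these values, 100% were whole multiples of 1 read (within 0.001), so reads were recovered. The tables of the whole series hold the same values (largest difference 0), and the fold changes and p-values of the authors' own comparisons in them were not used.

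Log2(normalized count + 1) of features with a mean of at least 10 was fitted in limma 3.58.1 (R 4.3.3; lmFit, eBayes with trend) over the 9 libraries, with Benjamini-Hochberg adjustment over all features within a comparison and a threshold of 0.05, two-sided. For the sum, the rows of HSP32, HSP33 and SNO4 were replaced by their sum before the fit. The fit was tested on simulated data in which a small part of the features changed, in the heat ramp group only. This test does not cover the choice of scaling. Alternatives were pseudocounts of 0.1 and 5, no filter, total count and TMM scaling, fits of only the groups compared, a replicate block, edgeR 4.0.16, DESeq2 1.42.0 and each library left out. With 3 libraries per group, the exact permutation test of a ratio cannot go below p = 0.1. Replicates differed beyond counting error (chi-square divided by its degrees of freedom, 23.8 to 223).

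The study's supplement states that each culture gave 1 sample of every group, so the replicate numbers pair the samples. Neither the main limma fit nor the exact test of the ratio used this pairing. It entered only as the replicate block, an alternative to the main fit. The deviations of paired samples from their group means correlated by −0.196 to 0.286 over 9 pairs.

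Sequences, coordinates and names are from RefSeq R64, which held 6048 of the 7126 identifiers as locus tags, read with Biopython 1.88. Named are the members, the genes of the lists and the 5 features most correlated with HSP31 and with the sum. Members and lists were chosen with earlier results of these data known. The limit of detection was taken as 3 reads per library and covers counting error only.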

Additional observations from a re-analysis of the deposited data

Results flagged for a closer look

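The effects of both treatments, set against the same control libraries, differed in the direct limma comparison of heat ramp and heat shock for each member and for the sum of the copies. The log2 fold changes of heat ramp against heat shock were 2.72 for HSP31, 1.81 for HSP32, 1.76 for HSP33, 1.27 for SNO4 and 1.65 for the sum of HSP32, HSP33 and SNO4. Of all features tested, 72% were called in this comparison, 35.9% higher and 36.1% lower. Because HSP32, HSP33 and SNO4 can share reads, their values are not separate findings. Groups of 3 libraries are too small to single out 1 library as an outlier.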

How the results depend on the processing

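Of 270 alternative values for 15 log2 fold changes, none changed sign, 257 kept their side of the threshold, 6 lost significance and 7 gained it. The 24 alternative values for the 3 ratios kept their sign, but their exact test cannot pass the threshold. Total count scaling ended the calls of HSP31 after the heat shock (0.30) and of HSP33 (0.45) and SNO4 (0.20) after the heat ramp, and brought HSP33 (−0.57) and the sum (−0.53) after the heat shock past the threshold. For the sum after the heat shock, TMM scaling (−0.38), edgeR (−0.41) and DESeq2 (−0.38) did so too. The cause was not tested. With 1 library left out, heat shock against control ranged from −0.66 to −0.36 for HSP32, −0.61 to −0.28 for HSP33 and −0.57 to −0.25 for the sum. The replicate block changed no call of the members (HSP31 after the heat shock 0.47, adjusted p = 0.00841; the sum −0.36, adjusted p = 0.0591). Of 432 counts over the gene lists, 377 stayed within 1.5 times the main count and 55 did not, 14 of them with total count scaling. PAU21 fell below the filter with total count scaling. Over all features, total count scaling divided the calls into 1312 higher and 4386 lower for heat ramp against control, 1516 and 2401 for heat shock against control and 1179 and 4097 for heat ramp against heat shock, against 2670 and 2705, 2050 and 1895, and 2459 and 2470 with size factors. The copies had 180 to 471 reads per library, so that counting error is larger for them than for HSP31 (5792 to 26919 reads).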
